A study of Rattus norvegicus with 4 samples.

Results

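The CXC chemokines Cxcl1, Cxcl2, Cxcl9, Cxcl10, Cxcl11, Cxcl12, Cxcl13 and Cxcl16 and platelet factor Pf4, itself a CXC family member, were examined in AA4-selected cells of rat pancreatic lymph node. Every probe set whose platform annotation gave 1 symbol among these 9 genes was taken, which gave 12 of the 31099 probe sets of the array, for 9 of its 14217 genes with such a set. The cells came from female BioBreeding rats at day 65, in 2 groups. The DRlyp/lyp group, titled DP, is diabetes-prone and homozygous for the lyp allele of Gimap5, a frameshift that leaves the animals short of peripheral T cells. The DR+/+ group, titled DR, carries the normal allele and is diabetes-resistant. Each group was 1 pool of RNA from 8 animals, from which about 50 ng was amplified separately for each of 2 arrays, so a mean ± SD below is over 2 arrays of 1 pool (n = 2). Its p-values compare 2 pools by the spread between amplifications, and the spread between animals was not measured.

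CXC chemokines are small secreted proteins that guide leukocytes through receptors of the Cxcr family. Cxcl1 and Cxcl2 attract neutrophils through Cxcr2 and are transcribed within a short time of NF-kB activation, in macrophages, stromal cells and activated mast cells. Cxcl9, Cxcl10 and Cxcl11 are induced by interferons and attract activated T and NK cells through Cxcr3. Cxcl12 and Cxcl13 are the constitutive lymphoid organ signals, made largely by stroma and read by Cxcr4 and Cxcr5. Cxcl16 is made as a membrane protein and is read by Cxcr6, and Pf4 is stored in platelet granules and is also transcribed in some macrophages.

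The promoters of the neutrophil attractants and of the interferon-induced ligands are shown because these genes are known for rapid induction, and a match to the NF-kB element, or its absence in Cxcl9, can be seen in the letters. Promoters of 8 of the 9 genes were found in the RefSeq table of the GRCr8 assembly, all but Pf4, each running from 250 bases before the gene's start to 50 bases after it. Capitals mark matches to the NF-kB consensus on either strand, where overlapping matches run together. Cxcl1 lies at chr14:17479272-17479571 and Cxcl2 at chr14:17467206-17467505, both on the minus strand. Cxcl9 lies at chr14:16006916-16007215, Cxcl10 at chr14:15988816-15989115 and Cxcl11 at chr14:15973478-15973777, each on the plus strand.
Cxcl1: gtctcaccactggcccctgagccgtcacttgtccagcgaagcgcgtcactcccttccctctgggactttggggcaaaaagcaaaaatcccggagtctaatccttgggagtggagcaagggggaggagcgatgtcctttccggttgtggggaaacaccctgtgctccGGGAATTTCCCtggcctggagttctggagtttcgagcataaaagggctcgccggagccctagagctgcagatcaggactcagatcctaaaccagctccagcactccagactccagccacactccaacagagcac
Cxcl2: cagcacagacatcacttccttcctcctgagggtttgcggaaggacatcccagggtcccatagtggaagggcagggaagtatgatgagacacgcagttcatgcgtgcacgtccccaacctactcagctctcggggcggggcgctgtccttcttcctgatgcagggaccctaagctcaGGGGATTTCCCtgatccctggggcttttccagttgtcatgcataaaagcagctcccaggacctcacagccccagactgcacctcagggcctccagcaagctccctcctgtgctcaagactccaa
Cxcl9: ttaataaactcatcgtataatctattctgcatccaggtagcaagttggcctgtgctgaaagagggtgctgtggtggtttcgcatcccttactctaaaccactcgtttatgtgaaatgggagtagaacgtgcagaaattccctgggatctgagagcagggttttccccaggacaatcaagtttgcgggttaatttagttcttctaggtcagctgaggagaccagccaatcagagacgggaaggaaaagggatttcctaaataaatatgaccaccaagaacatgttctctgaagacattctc
Cxcl10: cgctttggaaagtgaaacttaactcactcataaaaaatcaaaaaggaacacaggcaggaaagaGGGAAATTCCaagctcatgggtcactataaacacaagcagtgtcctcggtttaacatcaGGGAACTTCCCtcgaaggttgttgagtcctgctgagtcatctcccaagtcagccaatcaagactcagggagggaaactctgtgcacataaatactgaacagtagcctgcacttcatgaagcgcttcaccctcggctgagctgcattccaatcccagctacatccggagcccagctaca
Cxcl11: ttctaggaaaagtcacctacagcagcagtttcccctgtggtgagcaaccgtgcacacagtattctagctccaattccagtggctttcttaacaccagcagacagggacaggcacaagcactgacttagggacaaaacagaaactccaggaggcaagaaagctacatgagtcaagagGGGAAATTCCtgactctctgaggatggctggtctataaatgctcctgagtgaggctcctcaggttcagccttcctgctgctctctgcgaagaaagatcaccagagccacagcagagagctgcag

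The NF-kB consensus was matched in 4 of the 8 promoters, those of Cxcl1, Cxcl2, Cxcl10 and Cxcl11, against 7.51% of all 33469 promoters of the same length in the table. Its first base lay 84 bases before the start in Cxcl1, 74 before it in Cxcl2 and Cxcl11, and 187 and 128 before it in Cxcl10. The interferon-stimulated response element (ISRE), which interferon-activated STAT and IRF complexes bind, was matched in Cxcl10 alone among the 8, as GAAAGTGAAA at 243 bases before the start, against 3.92% of all promoters. The STAT element TTCNNNGAA was matched in Cxcl11 and, after the start, in Cxcl9, against 8.87% of all promoters. The AP-1 element TGANTCA was matched in Cxcl10 and Cxcl11, 96 and 85 bases before the start, against 7.33% of all. No match to any of these 4 motifs, searched on both strands with no overlap between different motifs, was found in the windows of Cxcl12, Cxcl13 and Cxcl16. These are matches of letters, not measured binding.

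Signal was the deposited linear intensity, with a trimmed mean of 150.1 on each array. Values were floored at 6.8 before log2, and a probe set was tested where 2 or more arrays exceeded the pooled median of 28.3, called the filter below. A signal below 28.3 was taken as not shown to be above background. At an adjusted p under 0.05 (limma), the DRlyp/lyp pool was higher in 3104 (19.3%) and lower in 3198 (19.9%) of the 16068 probe sets tested. Higher calls made up 49.3% of all calls with the deposited scaling and 35.9% with the arrays centred on their medians. The mast cell genes Cpa3 (425.8 to 527.8 over the 4 arrays) and Ms4a2 were above the filter, whereas Kit did not exceed 11.3. B cell and macrophage markers were above it in both pools, so the cells a difference comes from are not known, and fewer cells of a type cannot be told apart from less RNA per cell. Against the T cell shortage known of DRlyp/lyp rats, all 9 T cell markers tested were higher in that pool, with a summed signal of 8298 to 8332 against 1557 to 1693. Gimap5 read 518.3 and 514.8 against 399.8 and 531.7, which does not check the labels, since a frameshift need not change the level. The log2 difference between the 3′ and 5′ probe sets of beta-actin, which rises as amplified RNA shortens, was 4.43 and 4.55 on the DRlyp/lyp arrays and 3.01 and 3.10 on the DR+/+ arrays. Its part in the differences below was not tested.

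Every CXC ligand with enough signal to test read lower in DRlyp/lyp than in DR+/+ cells. Of the 12 probe sets, 7 passed the filter, 1 for each of 7 genes, and 7 were lower, beside the 19.9% of all tested probe sets that were lower. None was higher, with 0 higher at an unadjusted p under 0.05 as well (limma). Cxcl1 passed the filter through the DR+/+ arrays alone, and Cxcl2 with 1 DRlyp/lyp array just above it, so for Cxcl1 the direction was set by the filter. The other 5, Cxcl9, Cxcl10, Cxcl11, Cxcl16 and Pf4, lay above the filter on all 4 arrays, which put no direction on them, and these 5 were lower too. In each of the 7, both DRlyp/lyp arrays lay below both DR+/+ arrays, which held for 35.4% of all tested probe sets. The median log2 difference of the 7 was -1.49, beside -0.00050 over all tested probe sets.

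**Figure D1:**
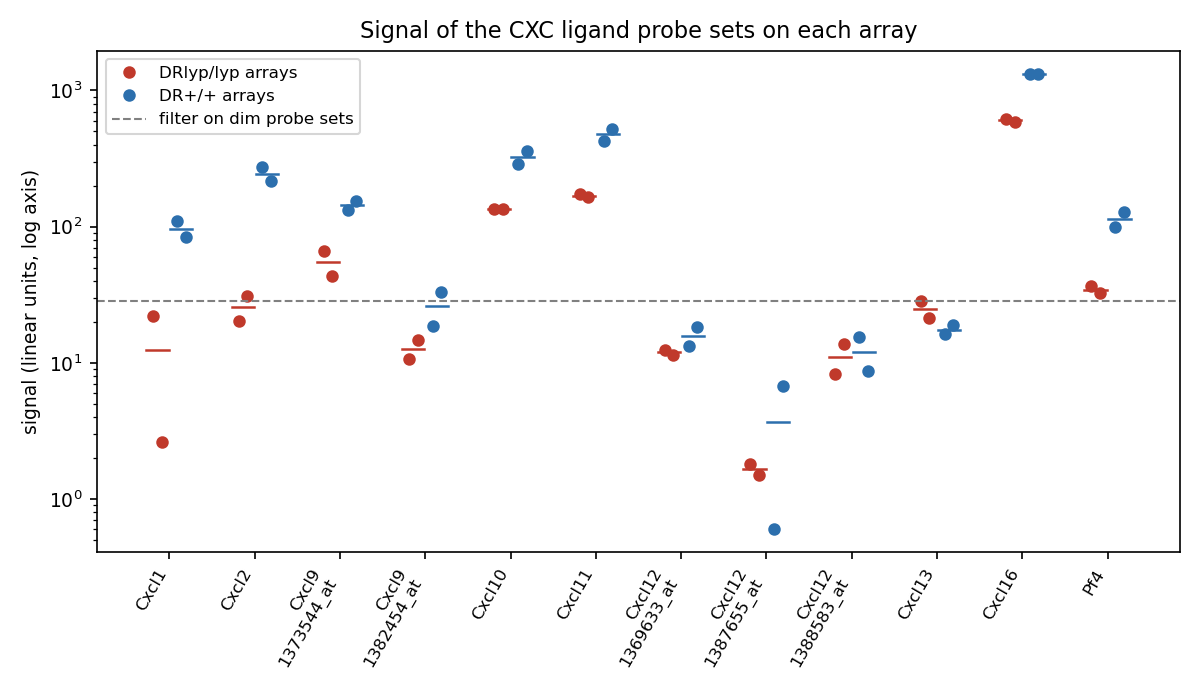
Signal of the 12 probe sets of the CXC ligands and Pf4 on each array, in linear units on a log axis, with DRlyp/lyp arrays in red, DR+/+ arrays in blue, a bar at each mean of 2 arrays and a dashed line at the filter of 28.3. Cxcl16, Cxcl10, Cxcl11 and the first Cxcl9 set sit above the line in both pools with the blue points higher, the second Cxcl9 set exceeds it on 1 array, Cxcl1 sits below it in the DRlyp/lyp pool, and the 3 Cxcl12 sets and Cxcl13 do not rise above it.

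Cxcl2, a neutrophil attractant, had the largest difference of the 7. It read 20.4 and 30.8 on the DRlyp/lyp arrays and 272.3 and 215.5 on the DR+/+ arrays. The groups lay far apart, and 1 of the DRlyp/lyp arrays was below the filter. The means were 25.6 ± 7.35 and 244 ± 40.2, a log2 difference of -3.27 (SE 0.270, limma adjusted p = 3.76e-06), or 9.66-fold lower. With the dim array set at the filter it was 8.21-fold lower.

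Cxcl1, the other ligand of this class, read 22.2 and 2.6 on the DRlyp/lyp arrays and 109.5 and 83.4 on the DR+/+ arrays. The DRlyp/lyp arrays were both dim and disagreed with each other, while both DR+/+ arrays were clearly above the filter. The means were 12.4 ± 13.9 and 96.5 ± 18.5, and Cxcl1 was at least 3.38-fold lower (limma adjusted p = 0.000693). Its log2 difference on the floored scale, -2.96, was -3.81 without DRlyp/lyp replicate 1 and -2.11 without DRlyp/lyp replicate 2. When 50 was added to every signal instead of flooring it, the log2 difference was -1.96 for Cxcl2, -1.24 for Cxcl1 and -0.95 for Pf4, each still past the threshold. On that scale Cxcl11, at -1.26, was as low as Cxcl1, and Pf4 differed less than Cxcl11, unlike on the floored scale. The places of Cxcl1 and Pf4 among the ligands therefore depend on the floor or offset used.

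The 3 interferon-induced ligands were lower by log2 differences of -1.25 to -1.49. Cxcl11 read 172.2 and 165.9 on the DRlyp/lyp arrays and 428.5 and 524 on the DR+/+ arrays, with means of 169 ± 4.45 and 476 ± 67.5 and a log2 difference of -1.49 (SE 0.143, limma adjusted p = 1.22e-05). Cxcl10 read 135.6 and 135.1 against 287.5 and 362, with means of 135 ± 0.354 and 325 ± 52.7 and a log2 difference of -1.25 (SE 0.162, limma adjusted p = 0.000109). For both genes the spread was wider between the DR+/+ arrays than between the DRlyp/lyp arrays, and the lower DR+/+ array was 2.12 times the higher DRlyp/lyp array for Cxcl10 and 2.49 times it for Cxcl11. Cxcl9 read 66.5 and 43.3 against 132.8 and 155.4, with means of 54.9 ± 16.4 and 144 ± 16.0 and a log2 difference of -1.42 (SE 0.256, limma adjusted p = 0.00106). A second Cxcl9 probe set was too dim to test, at 10.7 and 14.6 against 18.7 and 33.3, with only 1 array above the filter. The 95% intervals of the 3 genes, -1.80 to -1.17 for Cxcl11, -1.61 to -0.90 for Cxcl10 and -1.98 to -0.86 for Cxcl9, overlapped.

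Cxcl16, the membrane-bound ligand, read 617.7 and 588.7 on the DRlyp/lyp arrays and 1332.2 and 1313.5 on the DR+/+ arrays. The arrays of each pool were close together and the pools far apart, with means of 603 ± 20.5 and 1323 ± 13.2. The log2 difference was -1.13 (SE 0.0850, limma adjusted p = 1.76e-06), or 2.19-fold lower, the smallest of the 7 tested on the floored scale. With 50 added to every signal instead, Cxcl16, at -1.07, differed more than Cxcl10 (-1.01), Pf4 (-0.95) and Cxcl9 (-0.89).

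Pf4 read 36.7 and 32.3 on the DRlyp/lyp arrays and 100.1 and 128.4 on the DR+/+ arrays. The DRlyp/lyp arrays lay just above the filter. The means were 34.5 ± 3.11 and 114 ± 20.0, a log2 difference of -1.72 (SE 0.269, limma adjusted p = 0.000414), or 3.29-fold lower. Of 12 platelet and megakaryocyte markers on the array 7 were dim on all 4 arrays, among them Gp9 and Treml1, and of the 5 tested 1 was lower (Itga2b, the platelet integrin chain, 32.5 and 36.7 against 77.3 and 58.9) and 4 were higher (Itgb3, Selp, Vwf and Nfe2), where 21.1% of all genes were lower and 20.9% higher. Their summed signal was 1332 to 1334 on the DRlyp/lyp arrays and 876.3 to 897.6 on the DR+/+ arrays. Ppbp, the other abundant platelet CXC ligand and a chromosomal neighbour of Pf4, was dim on every array, with a highest signal of 15.7.

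The homeostatic ligands could not be compared. The 3 Cxcl12 probe sets did not exceed 18.3 on any array, and 1 of them read 0.6 to 6.8. Cxcl13 read 28.3 and 21.5 on the DRlyp/lyp arrays and 16.3 and 18.8 on the DR+/+ arrays. It was the 1 member whose DRlyp/lyp arrays lay above its DR+/+ arrays, but no array exceeded the filter. Tested without a filter, none of the 5 dim probe sets passed the threshold, with adjusted p from 0.343 for the second Cxcl9 set upward (limma). A low signal of a probe set does not show that the transcript was absent.

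**Figure D2:**
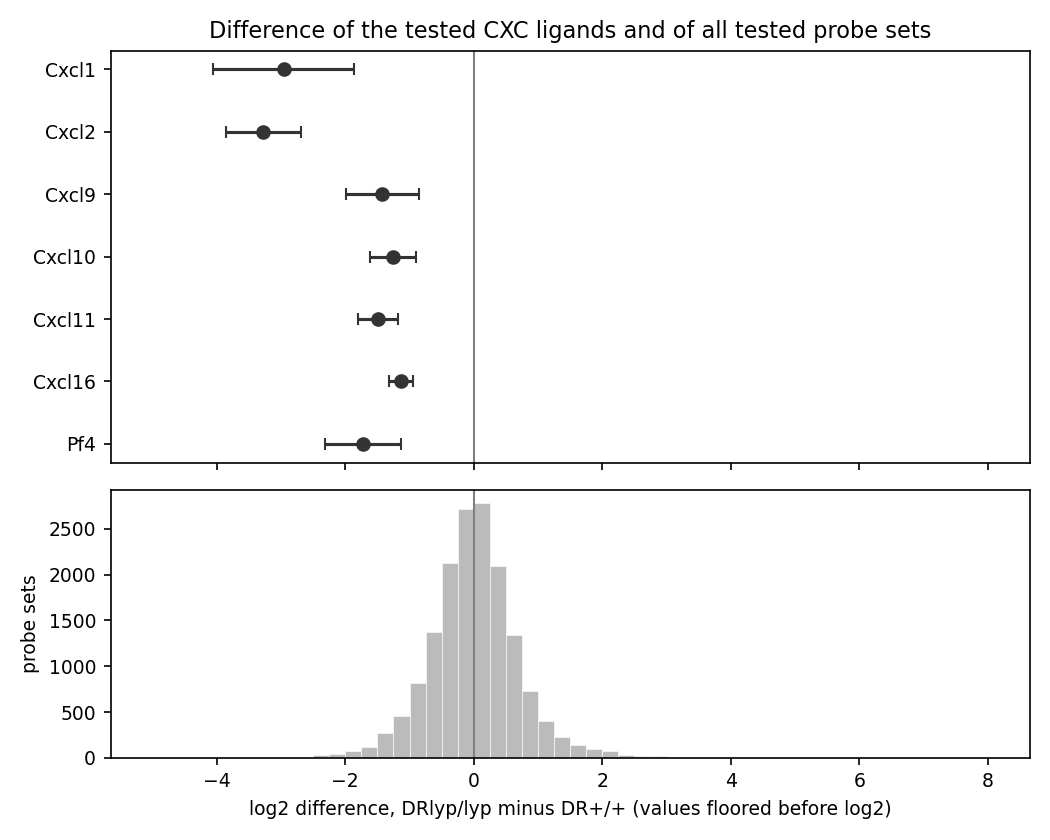
Upper panel, log2 difference (DRlyp/lyp minus DR+/+, values floored before log2) of the 7 tested CXC ligands, each point with its 95% interval from the limma fit. Lower panel, number of probe sets by log2 difference over all 16068 tested. Cxcl2 lies farthest to the left at -3.27, Cxcl1 is drawn at -2.96 but both its DRlyp/lyp arrays were dim and its place depends on the floor, and the other 5 lie between -1.72 and -1.13.

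The 95% interval of the Cxcl2 difference, -3.86 to -2.68, did not reach those of Cxcl9, Cxcl10, Cxcl11, Cxcl16 or Pf4, of which the lowest bound was -2.31 for Pf4. The interval of Cxcl1, -4.05 to -1.86, overlapped that of Cxcl2 and those of Cxcl9 and Pf4. Differences between genes were not tested. Among all tested probe sets, 1.08% had a lower difference than Pf4, 1.84% than Cxcl11, 2.18% than Cxcl9, 3.37% than Cxcl10 and 4.54% than Cxcl16. Signals of different probe sets were not compared, so the ligands are given no order of abundance.

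The tested ligands lie in 2 gene clusters on chromosome 14, apart from Cxcl16 on chromosome 10. In RefSeq gene order Cxcl2, Cxcl1, Cxcl3, Pf4, Ppbp and Cxcl6 form 1 cluster, and Cxcl11, Cxcl10 and Cxcl9 the other. In the first, Cxcl3 and Cxcl6, which also attract neutrophils, did not rise above 21.3 and 10.7. The flanking Mthfd2l, an enzyme of mitochondrial folate metabolism, read 113.3 and 113.4 against 101 and 102.9, a log2 difference of 0.15 that did not pass the threshold (limma adjusted p = 0.575). Beside the second cluster, Sdad1 read 311.6 and 279.7 against 296.6 and 304.5 (log2 difference -0.03, limma adjusted p = 0.897). The next gene, Naaa, a lysosomal amidase, read 449.8 and 433.3 against 939.1 and 971.3 and was lower by a log2 difference of -1.11 (limma adjusted p = 5.14e-06). On the other side, Nup54 and Scarb2 did not pass the threshold. Beside Cxcl16, the Mediator subunit gene Med11 read 284.4 and 385.1 against 157.8 and 227, higher by 0.81 (limma adjusted p = 0.00669). Pelp1, a nuclear coregulator, read 177.6 and 145.5 against 112.7 and 94.4 and was also higher, by 0.64 (limma adjusted p = 0.0236). Zmynd15, dim in the DR+/+ pool, and Arrb2, an arrestin, did not pass the threshold (1.02 and 0.08, limma adjusted p = 0.0727 and 0.687).

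**Figure D3:**
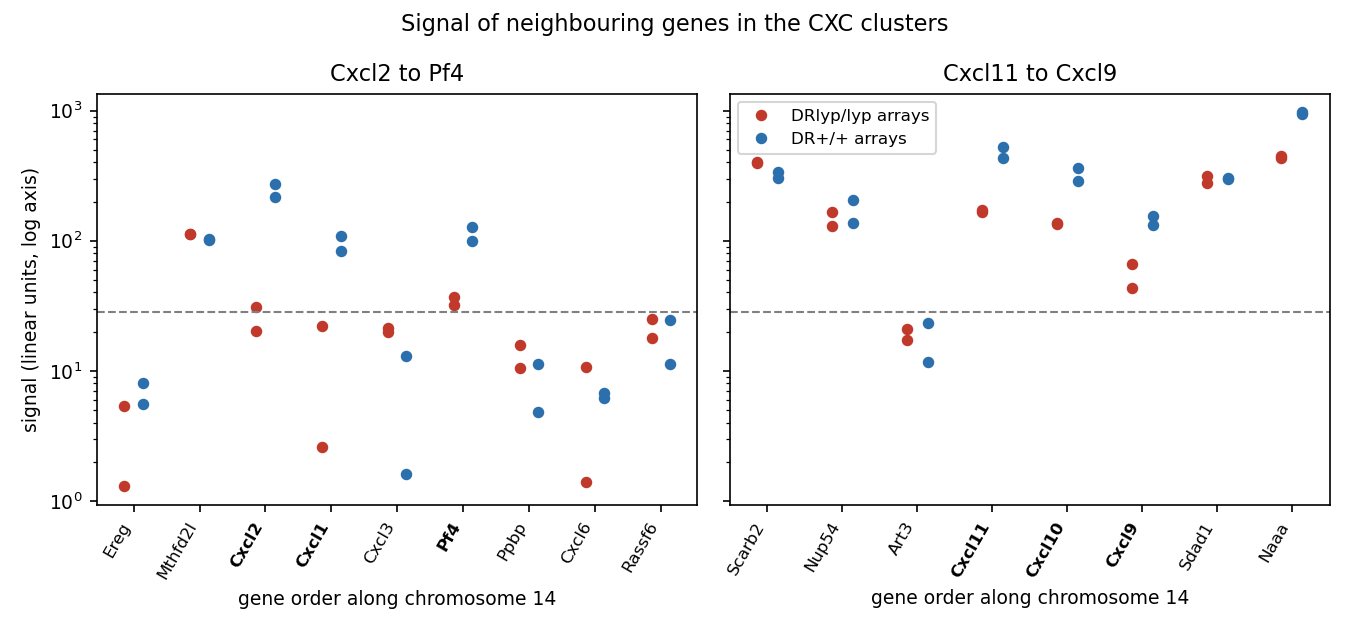
Signal on each array (linear units, log axis) of the genes in and beside the 2 chromosome 14 clusters, in RefSeq order and with genes lacking a probe set left out. Members are in bold, DRlyp/lyp arrays red, DR+/+ arrays blue, and the dashed line is the filter of 28.3. The members sit lower in the DRlyp/lyp pool between neighbours such as Mthfd2l and Sdad1 whose pools lie close together, while Naaa is lower too.

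Receptors of these ligands were partly measurable. Of 8 CXC receptor genes listed 7 were on the array with 1 symbol and 4 were tested, of which 3 were lower and 0 higher (1 higher at an unadjusted p under 0.05, limma), where 21.1% of all 9349 genes were lower. Cxcr4, the receptor of Cxcl12, read 2024.8 and 2003.8 on the DRlyp/lyp arrays against 3302.5 and 3295, a log2 difference of -0.71 (limma adjusted p = 3.76e-06). Its other probe sets differed by -0.94 and -2.14, so the direction was shared but the size was not. Ackr3, a scavenging receptor of Cxcl12 and Cxcl11, read 106.1 and 116.8 against 221.6 and 297.9 (-1.21, limma adjusted p = 0.000366). Cxcr5, the B cell receptor of Cxcl13, read 220.6 and 206.7 against 404.3 and 444.7 (-0.99, limma adjusted p = 0.000127).

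Cxcr3, the receptor of the 3 interferon-induced ligands, read 206.2 and 227.7 against 140.2 and 178.4, a log2 difference of 0.45 that missed the threshold (95% interval 0.076 to 0.83, limma adjusted p = 0.0561). The arrays lay above those of the DR+/+ pool, opposite to the ligands. Cxcr1 and Cxcr2, the neutrophil receptors of Cxcl1 and Cxcl2, did not exceed 11.9 and 12 on any array. Of the neutrophil markers 6 were tested, with 3 higher (S100a8, Csf3r and Fcnb) and 1 lower (the collagenase Mmp8), beside 20.9% and 21.1% of all genes. Mmp8 passed the filter through the DR+/+ arrays alone, so its direction was set by the filter. The summed signal of the neutrophil markers was 3161 to 3246 on the DRlyp/lyp arrays and 1711 to 2037 on the DR+/+ arrays.

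Genes that switch Cxcl1 and Cxcl2 on or off did not move as one. The test called 2 of 27 higher and 12 lower, beside 20.9% higher and 21.1% lower over all genes, and the median log2 difference was -0.09, beside 0.00075 over all genes. Among the lower were activators and restrainers alike. Zfp36, which hastens the decay of AU-rich messages such as those of Cxcl1 and Cxcl2, read 299.7 and 276.2 against 1375.9 and 1423.7 (-2.28, limma adjusted p = 1.75e-08). Irak3, a brake on Toll-like receptor signalling, read 294.2 and 283.1 against 822.3 and 803.5 (-1.49, limma adjusted p = 1.11e-06). Nfkbiz, a nuclear cofactor that assists NF-kB at secondary response genes, read 389.5 and 405.1 against 1133.9 and 1070.8 (-1.47, limma adjusted p = 5.92e-07).

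The 2 higher genes of that list were Tnip1, a restrainer of NF-kB, at 1483.9 and 1310.9 against 533.5 and 585.9 (1.32, limma adjusted p = 1.40e-06), and Il1b, an inducer of both ligands, at 999 and 930.3 against 763.5 and 709.6 (0.39, limma adjusted p = 0.00523). The call of Il1b was lost with the arrays centred on their medians (limma adjusted p = 0.0589) and with no intensity trend (0.0833). It was also lost without a filter (limma adjusted p = 0.0957) and against a 1.5-fold difference. Without DRlyp/lyp replicate 1 its log2 difference was 0.34. The NF-kB subunits Nfkb1, Rela and Relb did not pass the threshold, with log2 differences of 0.0034, -0.07 and -0.05. A further subunit, Nfkb2, was lower, at 366.6 and 379 against 493 and 526.2 (-0.45, limma adjusted p = 0.00729).

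Of 20 tested genes of the interferon gamma pathway, which drives Cxcl9, Cxcl10 and Cxcl11, 1 was higher and 9 lower, beside 20.9% and 21.1% of all genes, and the median log2 difference was -0.15. Gbp2, an interferon-induced GTPase, read 519.3 and 472.3 against 1010.4 and 1024.3 (-1.04, limma adjusted p = 8.84e-06). Irf8, an interferon regulatory factor of myeloid and B cells, read 1125.5 and 1022.7 against 1752 and 2001.4 (-0.80, limma adjusted p = 2.81e-05). Psmb10, an immunoproteasome subunit, read 868.9 and 953.6 against 1423.4 and 1600.1 (-0.73, limma adjusted p = 6.64e-05). On the floored scale each of these was a smaller difference than those of Cxcl9, Cxcl10 and Cxcl11, but this was not tested. The 95% interval of Gbp2, -1.25 to -0.83, overlapped those of the 3 ligands. With 50 added to every signal, Gbp2 was at -0.97 and Cxcl9 at -0.89. Ifng itself did not exceed 9 on any array, and the receptor chains Ifngr1 and Ifngr2 did not pass the threshold (0.02 and 0.11).

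The 1 higher gene of the interferon list was Ciita, the switch of MHC class II genes, at 2063.3 and 2087.6 against 1665.7 and 1686.9 (0.31, limma adjusted p = 0.00293). Another Ciita probe set went the other way, at 145.1 and 133.6 against 186.8 and 215.9 (-0.53, limma adjusted p = 0.0273), so its direction is not settled. The call was also lost with the arrays centred on their medians (limma adjusted p = 0.119), with no intensity trend (0.111) and against a 1.5-fold difference.

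Of the list of lymphotoxin and lymphoid stroma genes 5 were tested, with 2 lower and 0 higher, beside 21.1% and 20.9% of all genes. At an unadjusted p under 0.05 (limma) 0 were higher too. Vcam1, an adhesion molecule, read 1074.2 and 1015.3 against 2878.7 and 2875 (-1.46, limma adjusted p = 4.05e-08). Ltb, the lymphotoxin beta chain, read 2034.1 and 2104.1 against 2604.5 and 2597 (-0.33, limma adjusted p = 0.00128). The call of Ltb was lost with no intensity trend and without a filter (limma adjusted p = 0.098 and 0.052), and against a 1.5-fold difference. The stromal markers Col1a1, Col3a1, Dcn and Pdgfra did not exceed the filter on any array. Cr2, Fcer2, Thy1, Clu and Enpp2 of the same list exceeded it on all 4. Of 13 reticular and follicular dendritic markers on the array 7 were dim on all 4. Of the 5 tested 1 was lower, Enpp2, and 0 higher, beside 21.1% and 20.9% of all genes.

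**Figure D4:**
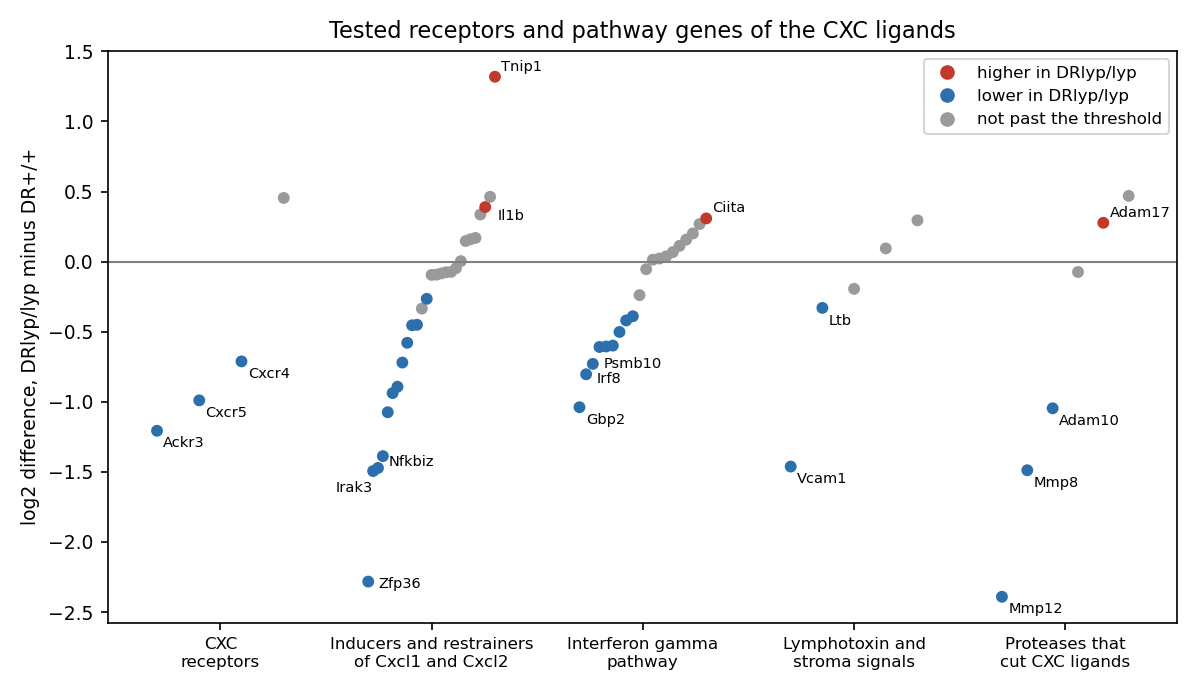
Log2 difference (DRlyp/lyp minus DR+/+) of each tested gene in 5 lists, 1 point per gene by its brightest tested probe set, with genes sorted within a list. Blue points were lower and red points higher at an adjusted p under 0.05, grey points did not pass it, and names mark up to 3 genes each way. Zfp36 at -2.28 and Mmp12 at -2.39 are the lowest points and Tnip1 at 1.32 the highest.

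Markers of further cell types, not all known to make these ligands, are given beside the share of all genes higher, 20.9%, or lower, 21.1%. Of 14 macrophage markers tested 9 were lower and 2 higher (Cd68 and Mrc1), with a summed signal of 8879 to 9090 on the DRlyp/lyp arrays and 13728 to 14624 on the DR+/+ arrays. Of 13 mast cell markers 2 were lower and 6 higher, with sums of 3403 to 3457 and 2094 to 2145. Of the 6, Mcpt4 and Il1rl1 passed the filter through the DRlyp/lyp arrays alone, so their direction was set by the filter. Of 6 endothelial markers 2 were lower and 2 higher, which is near the share of all genes. Of 7 B cell markers 4 were lower and 0 higher (0 higher at an unadjusted p under 0.05, limma). Of 12 exocrine pancreas markers 12 were higher, with sums of 9604 to 9792 and 232.1 to 238.5. Prss2, Ctrb1, Cela3b, Cpa1, Cpb1, Pnliprp1, Clps and Cel passed the filter through the DRlyp/lyp arrays alone, so their direction was set by the filter. Prss1 and Amy2a3 exceeded the filter on all 4 arrays and were higher too, and Cela2a and Pnlip had 1 DR+/+ array above it. The part of these shifts in the lower ligand signal was not tested.

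The genes whose pattern over the 4 arrays was nearest to each lower ligand were found by the Euclidean distance between log2 values centred on each gene's mean, over the 9349 genes. For Cxcl2 they were Fosb, an AP-1 subunit (distance 0.410), Cd24 (0.778) and Atf2 (0.841), and for Cxcl1 Tspan15 (0.860), Kcna2 (1.00) and Dnajc21 (1.01). For Cxcl9 they were Zfp646 (0.0337), the cytokine Il1a (0.131) and Adm (0.146), and for Cxcl10 Itgb5 (0.0514), Cep44 (0.0521) and Pgam5 (0.0581). For Cxcl11 they were Atp1b1 (0.0486), Mrgprx3 (0.0607) and Fcgrt (0.108), for Cxcl16 Pnrc1 (0.0228), Uqcrfs1 (0.0344) and Dnajc7 (0.0378), and for Pf4 Pld3 (0.150), Trim59 (0.152) and the B cell receptor chain Cd79b (0.171). Among the ligands themselves the nearest pair was Cxcl10 and Cxcl11, at 0.239, followed by Cxcl11 and Pf4, at 0.254. The distances for Cxcl1 and Atf2 depend on the floor, and over 4 arrays of 2 pools a short distance mainly says that 2 genes differed by a similar amount.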

How the data were processed

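Samples were grouped by their titles. Per the design text, the RNA was amplified with a two-cycle kit and hybridised to the Affymetrix Rat Genome 230 2.0 array. The authors deposited 1 linear intensity per probe set and array; which program made it, and with what scaling, is not given in the sources used here. Values were kept as deposited, 57 control sets were left out, and the rest were floored at the pooled 25th percentile. Log2 values were fitted in R 4.3.3 with limma 3.58.1 (lmFit, then eBayes with an intensity trend, with 2 residual degrees of freedom), two-sided, as DRlyp/lyp minus DR+/+. P-values were adjusted by Benjamini-Hochberg across every tested probe set. The number of arrays limits the precision. The script was tested on simulated data. Where both arrays of a pool were dim, the fold is a bound against the filter.

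Symbols are those of the 2016 platform annotation; the Entrez numbers of all 12 probe sets were in the RefSeq table. The files name no build, so probe sets were not placed on the genome, and GRCr8 coordinates belong to the promoters alone. A gene outside the members was represented by its brightest tested set. Named were every member probe set, up to 3 called genes each way per pathway list (or its brightest gene), the 3 nearest patterns of each called member, and Kit, Ppbp and Itga2b. Other genes given as examples were named after their values were seen. The members, lists and motifs were chosen with earlier results of these data known, so they are no independent support. Python 3.11.15 with matplotlib 3.10.9 drew the figures.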

Additional observations from a re-analysis of the deposited data

How the results depend on the processing

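The direction of the 7 tested ligands was the same in all 86 refits of single ligands. In 5 of these the ligand missed the threshold. Most settings could not reverse the direction. In each ligand the pools did not overlap, so leaving out an array, another floor or an added offset kept the sign. Other filters, the block, no trend and the 1.5-fold test left the difference itself unchanged. Quantile normalization and centring on the median could have changed the sign. Without a filter on dim probe sets 844 probe sets were higher and 827 lower, and 3 of the ligands were lower, Cxcl2, Cxcl11 and Cxcl16. Cxcl1 (adjusted p = 0.175), Cxcl9 (0.123), Cxcl10 (0.0603) and Pf4 (0.0616) then missed the threshold (limma), with differences as before; the cause was not tested. With the filter at the 75th percentile 4 ligands were tested and 4 were lower. With no intensity trend 1932 probe sets were higher and 2125 lower, and against a 1.5-fold difference 480 and 478, where Cxcl9 missed the threshold (adjusted p = 0.0565). Leaving out each array gave 1728 to 3132 higher and 2129 to 2824 lower probe sets and 6 to 7 lower ligands, with the lowest counts without DRlyp/lyp replicate 1 (1728 and 2129) and replicate 2 (1836 and 2331). Cxcl1 was not tested without either DR+/+ array, since too few arrays were then above the filter. With the replicate number as a block 3492 were higher and 3552 lower and 7 ligands were lower. The labels give same-numbered arrays only a number in common, and whether they shared a batch is not known (correlation of their deviations 0.0438). Centring on the median moved the median of all probe sets to -0.12. Of 230 refits of single pathway genes 32 lost their call and 0 changed direction. Here too most settings could not reverse a direction.

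Signal near the filter limits Cxcl1, Cxcl2, Pf4, Cxcl12 and Cxcl13, and with 1 pool per genotype no value here carries the spread between animals.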

Other observations

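Proteases that cut CXC ligands or release Cxcl16 from the membrane were measured too. Among the 6 that could be tested, DRlyp/lyp cells had 1 higher and 3 lower, beside 20.9% and 21.1% of all genes, and their median log2 difference was -0.56, beside 0.00075 over all genes. Mmp12, the macrophage metalloelastase, which can inactivate neutrophil-attracting CXC chemokines, read 375.4 and 317.2 on the DRlyp/lyp arrays and 1694.3 and 1932.7 on the DR+/+ arrays (-2.39, limma adjusted p = 2.75e-08). Adam10, which sheds Cxcl16, read 56 and 68.7 against 144.8 and 113.3 (-1.05, limma adjusted p = 0.00427). Adam17, another shedding protease, read 981.2 and 1000.6 against 856.7 and 780.5 (0.28, limma adjusted p = 0.0264), which missed the threshold on leaving out DRlyp/lyp replicate 1, DRlyp/lyp replicate 2 or DR+/+ replicate 2 (adjusted p = 0.119, 0.156 and 0.0915) and with the arrays centred on their medians (0.262). Mmp8, the neutrophil collagenase, passed the filter through the DR+/+ arrays alone, at 10.9 and 27 against 49.7 and 46.6, and on leaving out DRlyp/lyp replicate 1 it missed the threshold (adjusted p = 0.202). Dpp4, which trims the amino terminus of Cxcl10 and Cxcl12, read 143.8 and 157.4 against 102.2 and 115.6 and did not pass the threshold (0.47, limma adjusted p = 0.0674).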
